A study of Rattus norvegicus with 4 samples.

Results

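Glucocorticoid-responsive genes were examined in rat soleus, the slow postural muscle of the lower leg, as 9 members: Fkbp5, Zbtb16, Tsc22d3, Klf15, Arrdc2, Ddit4, Sgk1, Glul and Pdk4. The members were chosen by their published response to glucocorticoids and with earlier results from these arrays known, in which Fkbp5 and Arrdc2 were among the lower genes of regenerated overloaded muscle, so their differences are given as descriptions. All 9 were found by RefSeq accession among the 26633 genes and transcripts on the array. The soleus muscles were of male rats, and each of the 4 groups was 1 array of RNA mixed from 6 muscles. Normal muscle came from rats of 16 weeks. Regenerated muscle came from rats of the same age, 8 weeks after an injection that the labels call CTX, which usually stands for cardiotoxin, a venom toxin that destroys fibres. Overloaded muscle, labelled as hypertrophied, and regenerated overloaded muscle came from rats of 18 weeks, and neither the method of overload nor the time from injection to overload is stated. The array titles end in R for the groups without injury and in L for the injured groups. The labels do not expand these letters or say whether R and L muscles came from the same rats, so if they stand for right and left, injury and side cannot be told apart. With 1 array a group there is no spread between animals and no test between groups; n = 1 holds for every value, and the errors given are technical, from repeated spots of a probe on an array.

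Glucocorticoids are steroid hormones of the adrenal cortex that enter cells and bind the glucocorticoid receptor, which moves to the nucleus and switches target genes on or off. In skeletal muscle they favour the breakdown of protein and the use of fat and amino acids as fuel, and in excess they cause wasting. The members cover several steps of that response: Fkbp5 feeds back on the receptor, Zbtb16, Klf15 and Tsc22d3 act on transcription, Arrdc2, Ddit4 and Sgk1 act on signalling and growth, and Glul and Pdk4 encode metabolic enzymes. Several of them also respond to other inputs, such as fasting, insulin, hypoxia or the clock.

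The stretch before the transcription start is shown for Fkbp5, Arrdc2 and Klf15, which had the largest negative differences in both overload comparisons among the members in the RefSeq promoter table, and for Ddit4, whose overload difference was negative in regenerated muscle and positive in normal muscle. The table, of build GRCr8, matched 8 of the 9 members (all but Zbtb16) with 13 starts. Each line gives 250 bases that end at the start, 5′ to 3′ on the gene's strand, with capitals for CCAAT boxes (CCAAT or, read from the other strand, ATTGG) and GC boxes (GGGCGG, searched on both strands). Fkbp5 lies at chr20:6543556-6543805 on the minus strand, Arrdc2 at chr16:18635633-18635882 on the plus strand, Klf15 at chr4:124522765-124523014 on the plus strand and Ddit4 at chr20:28437038-28437287 on the minus strand.
Fkbp5: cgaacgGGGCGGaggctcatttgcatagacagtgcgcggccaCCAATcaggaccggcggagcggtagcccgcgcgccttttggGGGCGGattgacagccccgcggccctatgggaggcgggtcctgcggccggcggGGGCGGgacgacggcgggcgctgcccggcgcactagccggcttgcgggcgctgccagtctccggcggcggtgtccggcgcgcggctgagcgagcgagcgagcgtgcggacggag
Arrdc2: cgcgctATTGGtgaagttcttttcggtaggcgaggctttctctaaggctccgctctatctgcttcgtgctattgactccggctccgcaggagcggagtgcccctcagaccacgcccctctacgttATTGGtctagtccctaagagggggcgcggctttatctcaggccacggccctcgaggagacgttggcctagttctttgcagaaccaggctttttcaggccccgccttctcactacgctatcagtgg
Klf15: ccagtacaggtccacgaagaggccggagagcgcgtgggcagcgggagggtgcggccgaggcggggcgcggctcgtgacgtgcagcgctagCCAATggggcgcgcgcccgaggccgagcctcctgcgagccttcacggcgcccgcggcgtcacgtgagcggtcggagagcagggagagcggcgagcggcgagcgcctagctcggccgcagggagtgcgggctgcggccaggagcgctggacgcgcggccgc
Ddit4: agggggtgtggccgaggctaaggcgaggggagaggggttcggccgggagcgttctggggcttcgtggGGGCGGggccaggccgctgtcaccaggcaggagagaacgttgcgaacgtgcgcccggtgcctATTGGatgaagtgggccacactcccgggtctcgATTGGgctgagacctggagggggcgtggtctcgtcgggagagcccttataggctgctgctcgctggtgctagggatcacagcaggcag

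The letters searched for a glucocorticoid response element, GNACA and TGTNC with any 3 bases between them, were in none of the 13 windows of the members, and neither was its half-site AGAACA, with both strands searched. Over all 33469 windows of the table, 0.373% held the first and 17.5% the second. No match says only that these letters are not within these 250 bases. The CCAAT and GC boxes were searched after the sequences had been seen. A CCAAT box was in 8 of the members' windows (7 genes) against 34.0% of all windows, and a GC box in 9 (6 genes) against 30.5%. The G and C content was 76.0% before Fkbp5, 77.2% before Klf15, 67.6% before Ddit4 and 58.0% before Arrdc2.

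Signals below are processed scanner signals in intensity units after each array was scaled to a common 75th percentile of 753. A log2 difference of 1 is 2-fold, the limit used for counts. The 4 arrays lay on 1 slide, with normal and regenerated muscle in row 1 and both overloaded groups in row 2, so overload cannot be told apart from age and slide row. The share of spots well above background ran from 60.4% on the normal array to 70.6% on the overloaded array, and no spot was saturated. All 6 fibre markers, among them Myh7 and Tnnt1 of slow fibres, were well above background on the 4 arrays, so the tissue label was met. Every member was well above background on every array, so none was lost to a filter. In whole muscle, fewer cells of a type and less RNA per cell cannot be told apart.

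Most of these genes were lower in both overloaded groups than in the unloaded muscle of the same history. Over all genes measured, 55.1% were negative in overload of normal muscle and 53.8% in overload of regenerated muscle. In regenerated overloaded against regenerated muscle 3 stood at 2-fold or more lower, Fkbp5, Arrdc2 and Zbtb16, beside 0.424% of all genes. That comparison was in view when the members were picked. Under normexp, an alternative background correction described below, Fkbp5 alone was past 2-fold. Klf15, Pdk4 and Tsc22d3 had smaller negative differences in both overload comparisons. Ddit4 and Glul were lower after overload of regenerated muscle and not after overload of normal muscle. Sgk1 had positive differences throughout.

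**Figure D1:**
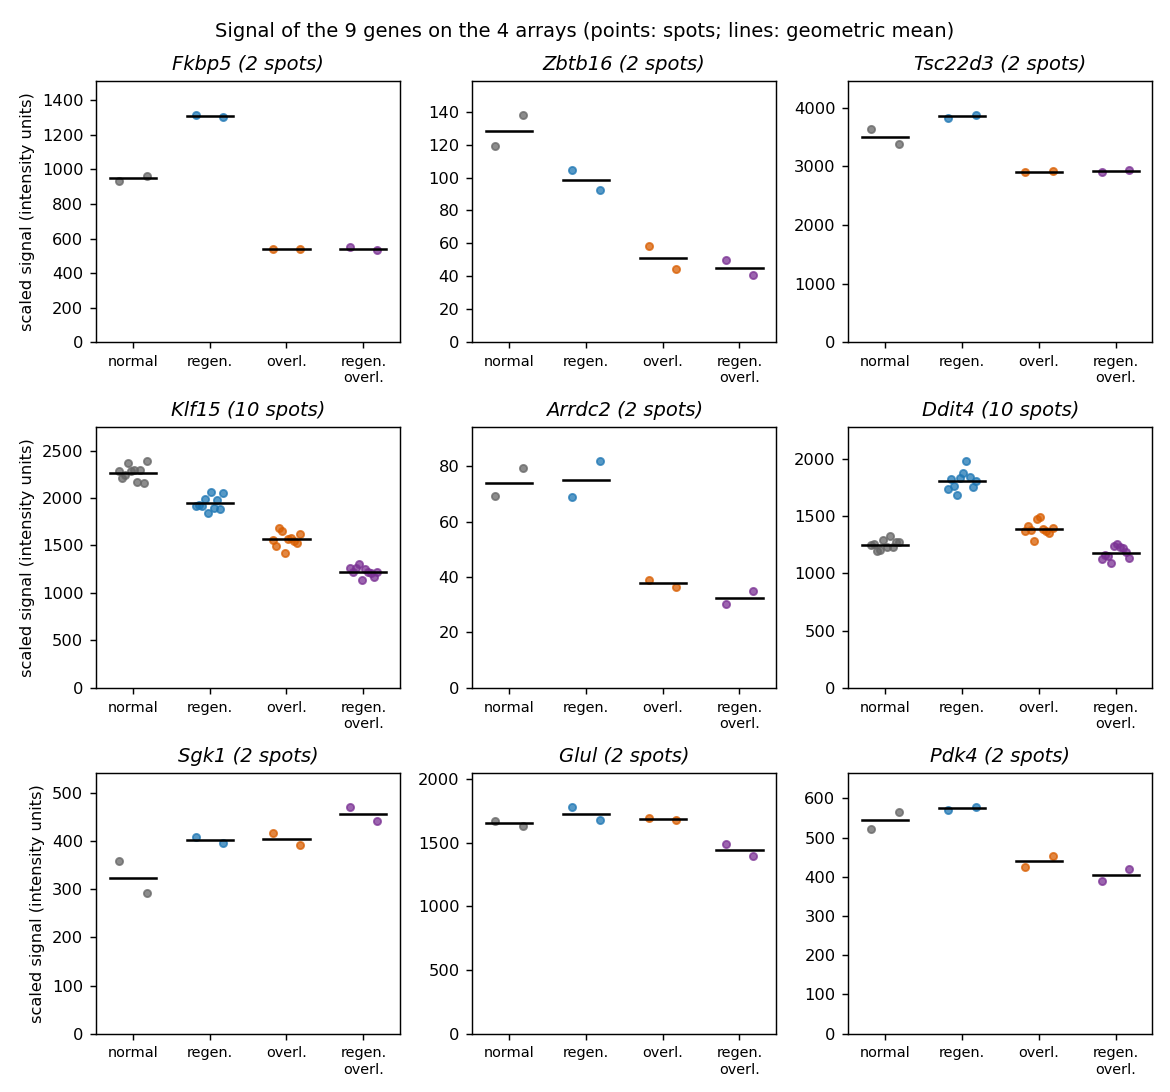
Scaled processed signal (vertical axis, intensity units, from 0) of each gene on the normal, regenerated, overloaded and regenerated overloaded array; points are the spots of the gene's brightest probe and lines their geometric mean. The Fkbp5 spots of both overloaded groups lie between 534 and 549, below those of normal (935 to 962) and regenerated muscle (1303 to 1315).

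Fkbp5 encodes the co-chaperone FKBP51, which binds the receptor complex and lowers its affinity for hormone, and the gene is used as a readout of glucocorticoid action. Its signal was 948 in normal, 1309 in regenerated, 539 in overloaded and 541 in regenerated overloaded muscle, on 2 spots an array. The spots of the 4 arrays form 3 levels that do not overlap: regenerated muscle was highest, normal muscle lay between, and the overloaded pair shared the lowest level. Regenerated overloaded muscle was 2.42-fold lower than regenerated muscle (log2 difference -1.27, technical SE 0.064). Overloaded muscle was 1.76-fold lower than normal muscle (-0.81, technical SE 0.069). Regenerated muscle was 1.38-fold higher than normal muscle (0.46, technical SE 0.064), whereas the overloaded groups differed by 0.01 (technical SE 0.068).

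Zbtb16 encodes PLZF, a zinc-finger repressor that is strongly induced by glucocorticoids in many tissues. Its signal was 128 in normal, 98.4 in regenerated, 50.9 in overloaded and 45.0 in regenerated overloaded muscle. Both overloaded arrays were below both unloaded arrays, with the highest overloaded spot at 58.7 and the lowest unloaded spot at 92.4. The difference was -1.33 for overloaded against normal muscle (technical SE 0.23) and -1.13 for regenerated overloaded against regenerated muscle (technical SE 0.22). The gene was dim, 2.52 to 5.99 times the lowest probe called above background on its array. Correction by normexp models signal and background jointly, and here also added an offset of 50 intensity units, which shrinks dim differences. It brought these values to -0.78 and -0.56, under 2-fold. The offset is near the signal of both overloaded arrays, and its part in the shift was not separated.

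Klf15 encodes a Krüppel-like factor that the receptor induces in muscle and that drives the breakdown of branched-chain amino acids and lipid use. Its 10 spots gave 2269 in normal, 1944 in regenerated, 1563 in overloaded and 1224 in regenerated overloaded muscle. No spot ranges overlapped, and the closest were normal and regenerated muscle, with a lowest normal spot of 2161 and a highest regenerated spot of 2066. Overloaded muscle was 1.45-fold lower than normal (-0.54, technical SE 0.025) and regenerated overloaded muscle 1.59-fold lower than regenerated (-0.67, technical SE 0.025). Klf15 was also lower in regenerated than in normal muscle (-0.22) and in regenerated overloaded than in overloaded muscle (-0.35).

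Tsc22d3 encodes GILZ, a leucine-zipper protein that carries much of the anti-inflammatory action of glucocorticoids. Its signal was 3508 in normal, 3854 in regenerated, 2910 in overloaded and 2921 in regenerated overloaded muscle. As with Fkbp5, regenerated muscle was highest and the overloaded pair equal within the spot error. The sizes were small, with -0.27 for overloaded against normal and -0.40 for regenerated overloaded against regenerated muscle (technical SE 0.056 each), and 0.14 for regenerated against normal muscle. Scaling by the factor of the authors' series table left the first at -0.09.

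Arrdc2 encodes an alpha-arrestin, one of a family of adaptors for the removal of membrane proteins. Its signal was 74.0 in normal, 75.01 in regenerated, 37.7 in overloaded and 32.5 in regenerated overloaded muscle. The unloaded arrays were alike and the overloaded arrays lower, the highest overloaded spot being 39.0 and the lowest unloaded spot 68.7. The difference was -1.21 for regenerated overloaded against regenerated muscle (technical SE 0.35) and -0.97 for overloaded against normal muscle (technical SE 0.26), just under 2-fold. This was the dimmest member, 1.82 to 4.56 times the lowest probe above background, both its spots lay in the outer 16 columns of the array, and normexp gave -0.43 and -0.42.

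Ddit4 encodes REDD1, an inhibitor of the mTORC1 growth pathway that glucocorticoids, hypoxia and stress induce. Its 10 spots gave 1252 in normal, 1810 in regenerated, 1391 in overloaded and 1179 in regenerated overloaded muscle. Regenerated muscle alone stood apart, its lowest spot (1688) above the highest of the other arrays (1492). Regenerated muscle was 1.45-fold higher than normal muscle (0.53, technical SE 0.026), and regenerated overloaded muscle was 1.54-fold lower than regenerated muscle (-0.62, technical SE 0.025). Overloaded against normal muscle gave 0.15 (technical SE 0.026). A second, dimmer probe on 2 spots gave 0.63, -0.59 and 0.34 for the same comparisons, with technical SE from 0.23 to 0.30.

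Sgk1 encodes a kinase that glucocorticoids and mineralocorticoids induce and that acts beside Akt in cell survival. Its signal was 324 in normal, 403 in regenerated, 404 in overloaded and 455 in regenerated overloaded muscle. The normal array was lowest and the other 3 were within 1.13-fold of each other. Its differences were 0.31 for regenerated and 0.32 for overloaded against normal muscle, 0.18 for regenerated overloaded against regenerated and 0.17 against overloaded muscle (technical SE 0.071 to 0.087). It was the only member with a positive difference in all 4 comparisons. Under each of the 8 alternative processings these signs were the same. Averaging probes and changing the filter could not alter its values, as Sgk1 had 1 probe, above background on every array.

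Glul encodes glutamine synthetase, by which muscle exports nitrogen from amino acid breakdown, and Pdk4 the pyruvate dehydrogenase kinase that turns muscle from glucose to fat. Glul gave 1652 in normal, 1727 in regenerated, 1688 in overloaded and 1442 in regenerated overloaded muscle. Only regenerated overloaded muscle stood apart for Glul, -0.26 against regenerated and -0.23 against overloaded muscle (technical SE 0.057 each), with its highest spot at 1492 and the lowest of the other arrays at 1633. Pdk4 gave 544 in normal, 575 in regenerated, 440 in overloaded and 404 in regenerated overloaded muscle. Pdk4 was therefore lower on both overloaded arrays, by -0.31 against normal (technical SE 0.077) and -0.51 against regenerated muscle (technical SE 0.072). The Pdk4 spots of the overloaded array (426 to 453) lay just above those of the regenerated overloaded array (388 to 421).

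**Figure D2:**
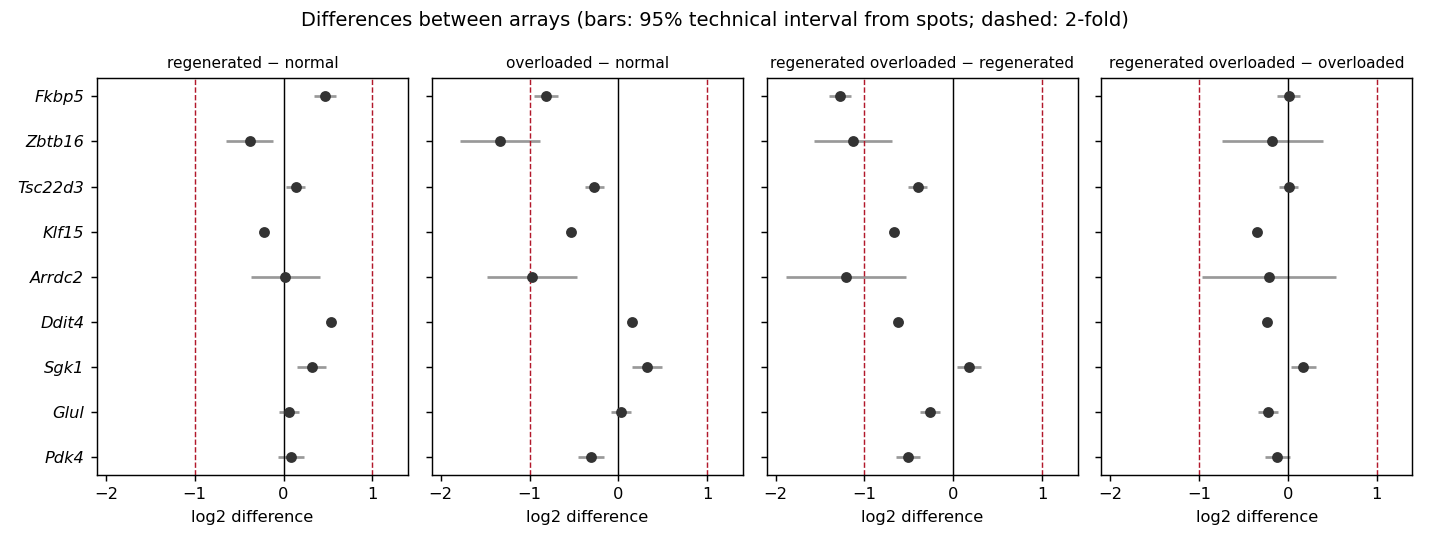
Log2 differences of the 9 genes (horizontal axes) in the 4 comparisons, with bars for the 95% technical interval from the SD between spots and dashed lines at 2-fold. Fkbp5, Zbtb16 and Arrdc2 lie left of the lower line for regenerated overloaded minus regenerated muscle, and Zbtb16 for overloaded minus normal muscle.

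In overload of regenerated muscle, 8 of the 9 differences were negative and 3 passed 2-fold lower, Fkbp5, Arrdc2 and Zbtb16, while none passed 2-fold higher. Over all 17208 genes and transcripts measured in that comparison 53.8% were negative, 0.424% were 2-fold or more lower and 1.56% higher. The members' median was -0.62 against -0.02 over all genes measured. Fkbp5 ranked 35 from the lowest, Arrdc2 39 and Zbtb16 53. Nothing is read from these shares, because this comparison was in view when the members were picked. With normexp Fkbp5 alone was past 2-fold (-1.22), and the median was -0.43.

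Overload of muscle without injury gave 6 negative differences, of Fkbp5, Zbtb16, Tsc22d3, Klf15, Arrdc2 and Pdk4, and 3 positive ones, of Ddit4, Sgk1 and Glul. Over all genes measured 55.1% were negative and 34.6% positive. Zbtb16 was 2-fold or more lower and no member 2-fold or more higher, beside 0.763% lower and 2.37% higher among 17308 genes and transcripts. The members' median was -0.31 and that of all genes -0.05. Under quantile and cyclic loess scaling Arrdc2 joined Zbtb16 past 2-fold, and with normexp none was past it. The median was -0.13 with the authors' factor, which put the median of all genes at 0.04. That factor left Pdk4 at -0.13 and Klf15 at -0.36, and put Sgk1 at 0.50, Ddit4 at 0.33 and Glul at 0.21.

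The overload comparisons share no array, but both carry the same contrast of age and slide row. Zbtb16 was 2-fold or more lower in both, as were 0.0837% of the 16725 genes and transcripts measured in both (14 in number, or 15.2% of those lower in the first and 27.5% of those lower in the second). At a limit of 1.5-fold, chosen after the values were seen, Fkbp5, Zbtb16 and Arrdc2 were lower in both, beside 0.783% of all genes. Taken singly, that limit held 3 members lower in overloaded against normal muscle, beside 3.2% of all genes. It held 5 in regenerated overloaded against regenerated muscle (Klf15 and Ddit4 with the former 3), beside 2.38%. Nothing is read from these overlaps and shares, because Fkbp5 and Arrdc2 were known as lower genes of regenerated overloaded muscle beforehand.

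**Figure D3:**
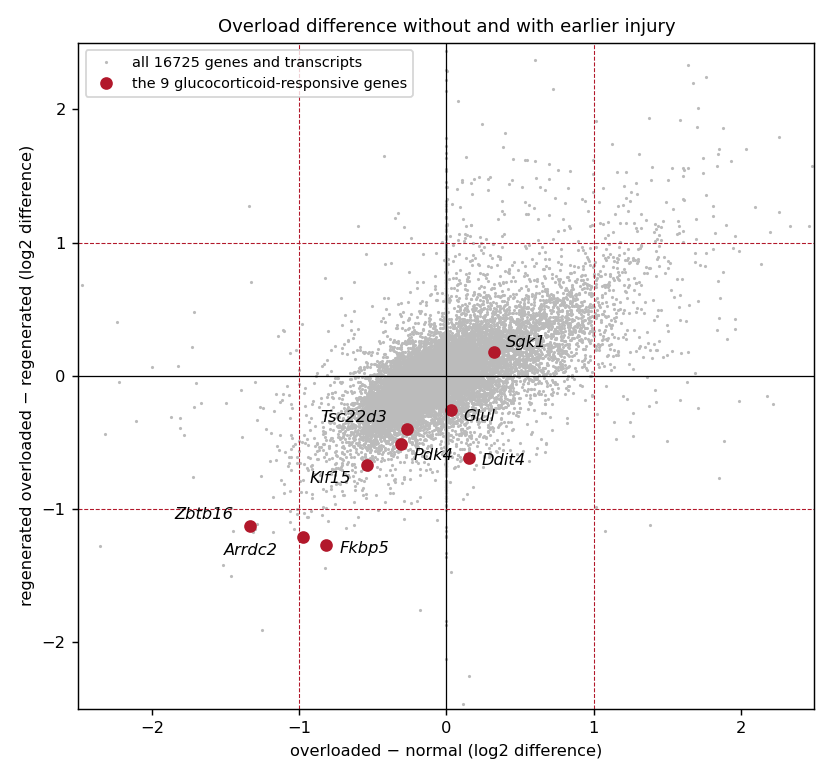
Log2 difference of overloaded minus normal muscle (horizontal) against regenerated overloaded minus regenerated muscle (vertical) for 16725 genes and transcripts (grey) and the 9 glucocorticoid-responsive genes (red), with dashed lines at 2-fold; 20 genes lie outside the axes, and points lined up at 0 are genes above background on 1 array whose smallest fold is none. Zbtb16, Arrdc2 and Fkbp5 lie at the lower left, Sgk1 at the upper right, and Ddit4 and Glul right of 0 and below 0.

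In regenerated against normal muscle without overload, no member passed 2-fold in either direction, beside 0.674% lower and 1.24% higher among 16911 genes and transcripts. The largest positive differences were those of Ddit4 (0.53, technical SE 0.026) and Fkbp5 (0.46, technical SE 0.064). Zbtb16 (-0.38, technical SE 0.14) and Klf15 (-0.22) were the negative ones. The median of the members was 0.08, and that of all genes -0.07. Arrdc2, at 0.02, changed sign with the scaling, from -0.15 under cyclic loess to 0.16 with the authors' factor.

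No member differed by 2-fold between the overloaded groups either, where 0.675% of 17493 genes and transcripts were 2-fold or more lower and 1.02% higher. The members ranged from -0.35 (Klf15) to 0.17 (Sgk1) with a median of -0.18, beside -0.01 over all genes. Fkbp5 and Tsc22d3, which stood higher in regenerated than in normal muscle, were at 0.01 each here (technical SE 0.068 and 0.056). The technical 95% intervals, -0.13 to 0.14 for Fkbp5 and -0.97 to 0.54 for Arrdc2, show how much closer the bright gene was measured.

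A difference of differences was taken by subtracting each gene's value for overload of normal muscle from its value for overload of regenerated muscle, and it was negative for 8 of the 9 genes. It was -0.77 for Ddit4 (technical SE 0.037) and -0.46 for Fkbp5 (technical SE 0.094). Glul followed at -0.29 (technical SE 0.080) and Klf15 at -0.13 (technical SE 0.036). Both Ddit4 and Fkbp5 were higher in regenerated than in normal muscle, and on the overloaded arrays they were within 1.18-fold. The values of Arrdc2 (-0.24), Pdk4 (-0.20), Zbtb16 (0.20), Sgk1 (-0.14) and Tsc22d3 (-0.13) were each under 2 technical SE as reported. Some of these values moved with the processing: Tsc22d3 was at -0.25 under cyclic loess, -0.26 under quantile scaling and -0.31 with normexp, and Klf15 at -0.23, -0.23 and -0.22. Arrdc2 was at -0.03 under cyclic loess, and Sgk1 at -0.014 without the outer rows and columns. Of 14417 genes and transcripts above background on all 4 arrays, 1.01% had a value as low as that of Ddit4 and 5.26% one as low as that of Fkbp5. For Tsc22d3, the negative value nearest 0, that share was 21.5%. The share of all genes with a negative value was not counted. Nothing is read from the count of 8 or from these shares. Overload of regenerated muscle enters each value, and that comparison was in view when the members were picked.

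**Figure D4:**
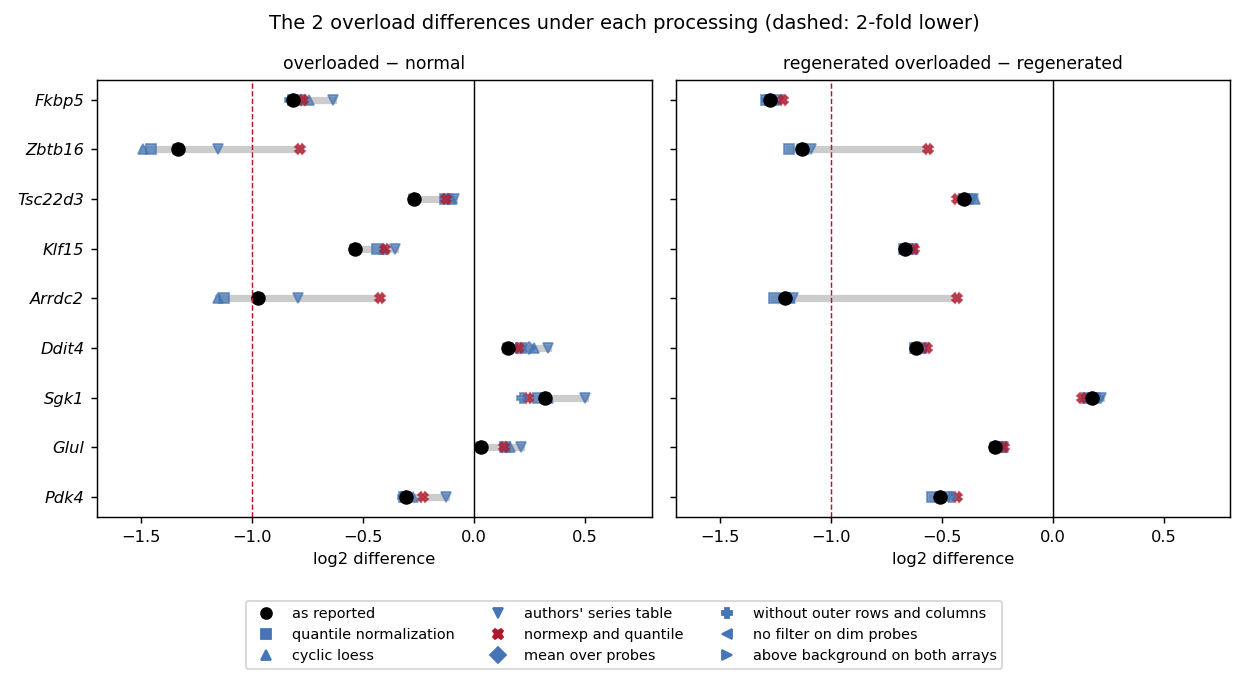
Log2 differences (horizontal axes) of the 9 genes in the 2 overload comparisons as reported (black) and under 8 alternative processings (normexp in red, others in blue), with grey bars for their range and a dashed line at 2-fold lower. Normexp moves Zbtb16 and Arrdc2 toward 0, to between -0.78 and -0.42, and leaves Fkbp5 at -0.77 and -1.22.

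The receptor itself differed little. Nr3c1, the glucocorticoid receptor, gave 427 in normal, 373 in regenerated, 388 in overloaded and 371 in regenerated overloaded muscle, and its overload differences were -0.14 and -0.01. Hsd11b1, the enzyme that regenerates active hormone within cells, gave 1381, 1094, 1255 and 1311, with overload differences of -0.14 and 0.26. With the authors' factor the differences of both genes for overloaded against normal muscle turned to 0.04, and averaging the receptor's probes turned its second value to 0.04. Hsd11b2, the enzyme that inactivates the hormone, was the only one of the 13 or 14 measured genes of receptor and ligand handling past 2-fold in any comparison. It was at 49.5 in normal, 113 in regenerated, 149 in overloaded and 151 in regenerated overloaded muscle, 1.19 and 1.59 above normal in regenerated and overloaded muscle (technical SE 0.29 each), or 0.61 and 0.86 with normexp. The list's median was -0.19 for overload of normal muscle with 12 of 14 negative, or -0.017 with 7 of 14 negative by the authors' factor, and -0.08 for overload of regenerated muscle; the receptor's chaperone partner Fkbp4 was at -0.69 and -0.35.

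Other genes known to be induced by glucocorticoids went both ways. Of 20 measured, none passed 2-fold in either overload comparison, and the medians were -0.08 in normal muscle, which turned to 0.09 with the authors' factor, and -0.18 in regenerated muscle. Under other scalings (quantile, cyclic loess, the authors' factor or normexp) 1 gene of the list was past 2-fold higher in regenerated muscle, at 1.02 to 1.05, and under quantile and cyclic loess 1 was past 2-fold lower in normal muscle, at -1.10 and -1.14. Genes named next were picked after their values were seen. Klf9, a receptor target and relative of Klf15 (-0.59 and -0.78), Cebpb (-0.50 and -0.62), Nfkbia (-0.40 and -0.63) and Angptl4 (-0.35 and -0.77) were among those negative in both comparisons. Mt1 (0.56 and 0.98) and Mt2A (0.52 and 0.58), the metallothioneins, and Anxa1 (0.68 and 0.45), an anti-inflammatory annexin, were positive in both. Errfi1, a feedback inhibitor of the EGF receptor, was the only one past 2-fold anywhere: 2336 in normal, 5383 in regenerated, 2299 in overloaded and 3632 in regenerated overloaded muscle, 1.20 above normal in regenerated muscle (technical SE 0.057).

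Of the atrophy genes, which glucocorticoids and FoxO factors raise in wasting muscle, 11 were measured and none passed 2-fold in any of the 4 comparisons. The overload medians were -0.30 in normal muscle, which was -0.16 under quantile scaling, -0.14 under cyclic loess and -0.12 with the authors' factor (6 of 11 negative), and -0.09 in regenerated muscle. Trim63 (MuRF1), a ubiquitin ligase of wasting muscle, gave 1575, 1263, 805 and 796 in the 4 groups, -0.97 and -0.67 with overload. Fbxo32 (atrogin-1) gave 613, 410, 498 and 417, with -0.30 and 0.02. Ctsl, on the same list, was higher with overload, at 9030, 10354, 13950 and 14731, with 0.63 and 0.51. As reported, 8 of the 11 were negative in overload of normal muscle and 7 in overload of regenerated muscle.

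**Figure D5:**
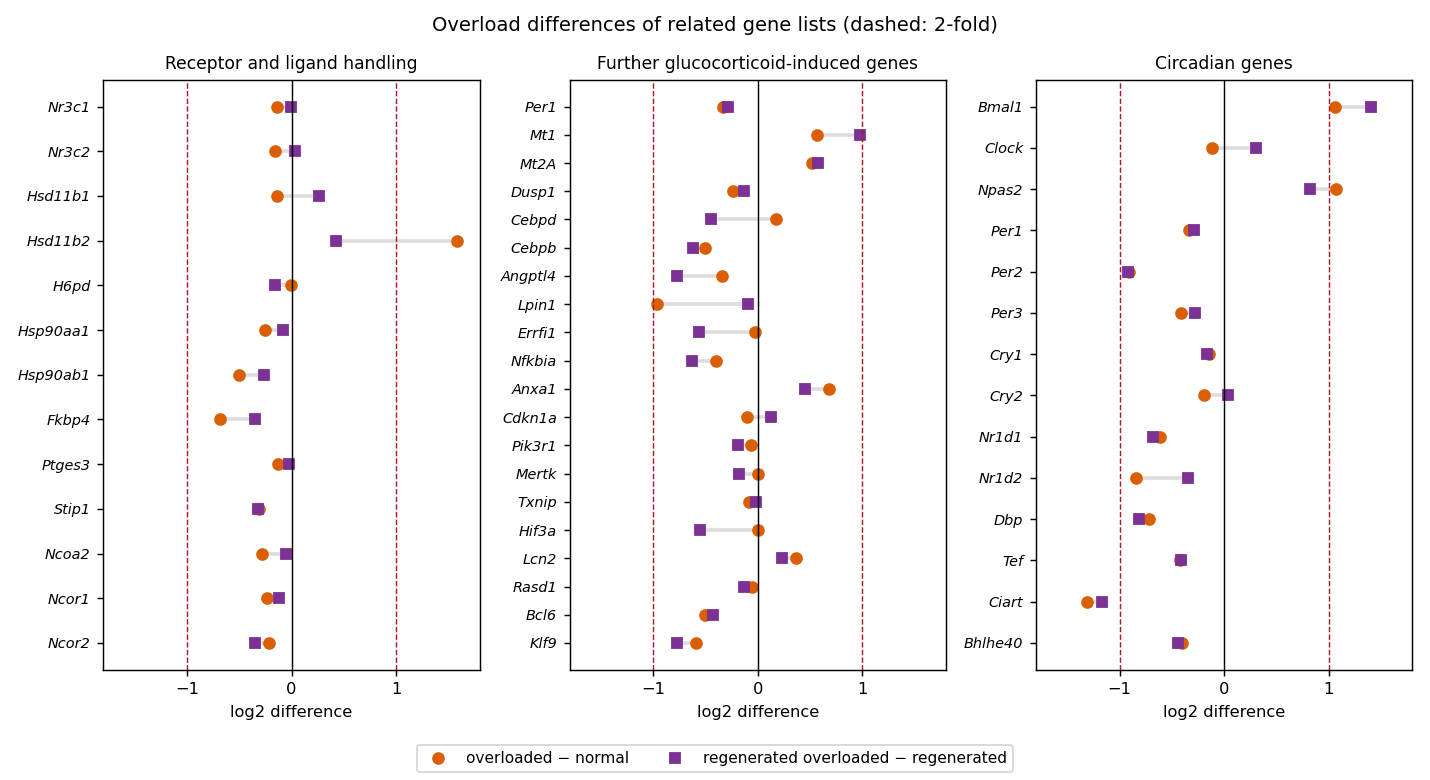
Log2 differences (horizontal axes) of overloaded minus normal (circles) and regenerated overloaded minus regenerated muscle (squares) for genes of receptor and ligand handling, further glucocorticoid-induced genes and circadian genes, with dashed lines at 2-fold. Bmal1 lies above 1 and Ciart below -1 in both comparisons, and Per2, Dbp and Nr1d1 lie between -0.92 and -0.62.

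Of 14 circadian genes, 3 passed 2-fold in overloaded against normal muscle and 2 in regenerated overloaded against regenerated muscle, beside the shares of all genes given above; the others were under it, and the labels do not give the hour of sampling. Bmal1 and Npas2, of the activating arm of the clock, were 2-fold or more higher in overloaded than in normal muscle (1.06 and 1.07). With normexp they were under 2-fold, at 0.84 and 0.62, as was Bmal1 with its probes averaged, at 0.95. Clock, also on the list, was at -0.11, and at 0.31 in regenerated overloaded against regenerated muscle. Ciart, a repressor, was lower in overloaded than in normal muscle on 1 spot (-1.31, or -0.81 with normexp). In regenerated overloaded against regenerated muscle Bmal1 was at 1.41, Ciart at -1.17 (-0.66 with normexp) and Npas2 at 0.82. Averaging the probes of Npas2 gave 0.37 and 0.39. The repressor Per2 gave 260, 263, 138 and 140 in the 4 groups on 10 spots, so that both overloaded arrays were lower by -0.91 and -0.92. Glucocorticoid secretion follows a daily rhythm; the part of the hour of sampling in the differences of Fkbp5, Zbtb16, Klf15 and Arrdc2 was not tested.

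Markers of other cells also differed between the arrays. The summed signal of 4 fibroblast markers was 36790 in normal, 59889 in regenerated, 78223 in overloaded and 96868 in regenerated overloaded muscle, and that of 5 macrophage markers 1925, 3238, 3491 and 3812. Such sums follow the brightest genes. From overloaded to regenerated overloaded muscle Col1a1 went from 38020 to 57934, but 2 of the 4 fibroblast markers were lower (median difference 0.06). The 6 fibre markers summed to 1544280, 1250180, 1229730 and 1153850. Of the 5 adipocyte markers on the array, Lep was not above background on any array and the sum was 12256, 22364, 15641 and 20811. Cfd, the brightest of them, gave 7038, 15306, 10699 and 15068. In overloaded against normal muscle 3 of the 4 measured adipocyte markers were lower, with a median of -0.16. The 5 endothelial markers were nearly level, from 7937 to 8557, and the 4 Schwann cell markers ranged from 1524 to 1995. Of 3 lymphocyte markers, Cd3e and Cd79b were above background nowhere. The fibre median was -0.34 for overload of normal and -0.11 for overload of regenerated muscle, against -0.81 and -1.27 for Fkbp5, and cyclic loess turned the fibre medians to 0.04 and 0.01. The part of cell makeup in the members' differences was not tested.

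The genes whose 4 levels were most like those of Fkbp5 were sought among 8741 genes and transcripts above background on all arrays with 2 or more spots, by the distance between log2 levels centred on each gene's mean. An unnamed transcript was nearest, followed by Slc25a30, a mitochondrial carrier (distance 0.29), Aqp4, a water channel (0.31), Asb5 (0.32), Pgf, placental growth factor (0.32), and Procr, the protein C receptor (0.33). Asb5 gave 13227 in normal, 13486 in regenerated, 6445 in overloaded and 6062 in regenerated overloaded muscle. Arrdc2 was the nearest member, rank 8 at 0.36, and Zbtb16 was rank 95 at 0.64. Sgk1 was the farthest, rank 7024 at 1.30. With 4 arrays, such likeness is a description of these samples.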

How the data were processed

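RNA mixed from 6 soleus muscles per group was measured on 4 one-colour Agilent arrays. The deposited scanner files hold, per spot, intensity values (processed signal, its error, median signal and local background) and other columns, flags of 0 or 1; per the file headers they were made with Feature Extraction 11.5.1.1, protocol GE1_1105_Oct12, on probes designed for build rn4, while 10.10.1.1 is the version in the submitters' processing notes. The authors' series table holds the processed signal intensity times 1 factor per array (2.14, 2.10, 1.95 and 2.02); it is linear and not centred, its column medians were 182, 212, 222 and 226 intensity units, and the basis of the factor is not given in the sources used here.

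Of 58717 probe spots per array, those with an outlier flag (406 to 451) were left out. Log2 processed signals were reduced by the array's 75th percentile (663 units for normal, 745 for regenerated, 822 for overloaded and 792 for regenerated overloaded muscle). Spots were averaged per probe, and each gene was read from its brightest probe. Accessions matched 18643 of 30367 probes to 15637 symbols of a RefSeq table (assembly GRCr8). A comparison counted a gene as measured if over 50% of its spots were well above background on either array; the dimmer side was then set no lower than the lowest probe above background. Technical SE came from the SD between spots in 20 bins of level and the number of spots. The number of arrays limits precision. No test between groups was run, and a fit with both factors and their interaction leaves 0 residual degrees of freedom. The path from spots to genes was tested on simulated data.

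The members and lists were chosen with earlier results of these data known. All 9 members were named, with list genes past 2-fold, Nr3c1, Hsd11b1, and the 5 named genes nearest in pattern to Fkbp5. Further list genes under 2-fold were named outside this rule, with their values known. Alternatives were quantile and cyclic loess scaling, the authors' factor, normexp (limma 3.58.1, offset 50, on the median signal, as the files hold no mean) with quantile scaling, the mean over probes, leaving out the outer 16 rows and columns, no filter on dim probes, and a filter on both arrays. Scripts ran in Python 3.11.15 and R 4.3.3.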

Additional observations from a re-analysis of the deposited data

Results flagged for a closer look

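For Ddit4 the overload difference had opposite signs, 0.15 in muscle without injury and -0.62 in regenerated muscle, a difference of differences of -0.77; it rests on 1 array a group, and the difference between the groups was not tested. Glul was also of opposite sign, at 0.03 and -0.26, a difference of differences of -0.29. That too was not tested, and the first of its values was within its technical SE of 0.057.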

How the results depend on the processing

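The count of members past 2-fold in overloaded against normal muscle, 1 as reported, was 2 under quantile normalization and under cyclic loess, 0 with normexp and 3 at a limit of 1.5-fold chosen after seeing the data; in regenerated overloaded against regenerated muscle, 3 as reported, it was 1 with normexp and 5 at that limit. The members' median in regenerated against normal muscle, 0.08, was 0.18 under cyclic loess and 0.22 with the authors' factor. In overloaded against normal muscle it was -0.13 with the authors' factor (reported -0.31). With normexp it was -0.43 in regenerated overloaded against regenerated (reported -0.62) and -0.057 in regenerated overloaded against overloaded muscle (reported -0.18). No difference past 2-fold changed sign under any alternative that gave a value. Without the outer rows and columns Tsc22d3 and Arrdc2 had no spot left and no value. Over all genes, normexp left 32 lower and 180 higher in overloaded against normal muscle (reported 132 and 410) and 20 and 82 in regenerated overloaded against regenerated muscle (reported 73 and 269); the authors' factor gave 82 and 707 in the former, and 91 and 322 in regenerated against normal muscle (reported 114 and 210). The cause of these shifts was not tested. Of 70 single values under alternatives in each comparison, 22, 25, 9 and 2 moved by more than the technical SE (first for regenerated against normal muscle, then for overload of normal and of regenerated muscle, last between the overloaded groups). Part of the 70 could not move, so these counts understate the dependence on processing. The changed filters left every member as it was, and averaging probes altered only Ddit4. No paired analysis was possible because each group is 1 array and the labels give no shared animals. Signal over background limits Zbtb16 and Arrdc2 most.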

Other observations

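Genes of amino acid breakdown, which glucocorticoids and Klf15 are known to raise, had small negative differences with overload. All 9 measured genes were negative in overload of normal muscle (median -0.25, from -0.65 to -0.08) and in overload of regenerated muscle (median -0.33, from -0.51 to -0.08), and none passed 2-fold; in the first, the median was -0.11 under quantile scaling, -0.092 under cyclic loess and -0.07 with the authors' factor, which left 8 of the 9 negative. Bcat2, the enzyme that starts the breakdown of branched-chain amino acids, was at -0.20 and -0.37, and Got1, an aspartate aminotransferase, at -0.65 and -0.51. Prodh, proline dehydrogenase, gave 1113 in normal, 648 in regenerated, 748 in overloaded and 512 in regenerated overloaded muscle on 1 spot. Over all genes measured, 55.1% were negative in the first comparison and 53.8% in the second. Of the 6 fibre markers, all 6 were negative in the first (median -0.34) and 4 in the second (median -0.11). In regenerated against normal muscle 8 of the 9 were negative (median -0.19), beside 57.8% of all genes. Between the overloaded groups 9 of 9 were negative (median -0.24), beside 52.2% of all genes.

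Genes of fasting and PPAR action were negative in 9 of 9 for overload of normal muscle and 10 of 10 for overload of regenerated muscle. The medians were -0.35 each, beside -0.34 and -0.11 for the fibre markers, and none passed 2-fold. Cyclic loess left 6 of the 9 negative in the first, with a median of -0.15. In regenerated against normal muscle 7 of 10 were negative (median -0.23), and between the overloaded groups 9 of 9 (median -0.24). Lpl, lipoprotein lipase, gave 8758, 6644, 6115 and 4608 in normal, regenerated, overloaded and regenerated overloaded muscle on 10 spots. Among relatives of the members, 7 of 14 were negative in each of the 4 comparisons and none passed 2-fold (4 of 14 were negative, and 1 was past 2-fold higher, in overload of normal muscle under cyclic loess). Pdk2, another kinase of pyruvate dehydrogenase, was at -0.71 and -0.40 with overload, whereas Arrdc1, an alpha-arrestin like Arrdc2, was at 0.60 and 0.39, and Tsc22d1, a relative of Tsc22d3, at 0.32 and 0.35.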
